A study of Mus musculus with 24 samples.

Results

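A set of 10 genes of the heat shock chaperone network was followed across 24 arrays of mouse blastocysts: Hspa1a, Hspa1b, Hspa8, Hspb1, Hsp90aa1, Hsp90ab1, Hspd1, Hspe1, Hsph1 and Dnajb1. They were selected by gene name, as the 10 named members out of 18448 genes tested, and the list was drawn up with values of these same arrays in view. Their levels and spreads are therefore given as a description. All 10 passed the filter on dim probes, and 20 probes on the array carry their names, of which 17 were well above background on all 24 arrays. The comparison of main interest sets the inducible pair, Hspa1a and Hspa1b, against 4 members taken as constitutive, Hspa8, Hsp90ab1, Hspd1 and Hspe1, within each pool of embryos.

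Blastocysts are embryos at the last stage before implantation, and total RNA was measured from pools of frozen expanded blastocysts. The pools carry 6 condition codes, HC1 to HC6, with 4 pools each. A pool held 15 blastocysts in HC1 to HC5 and 20 in HC6, so in HC6 the code and the pool size cannot be told apart. The study as a whole concerns bisphenol A, a plastic monomer, and membrane estrogen receptors, but which agent, dose or control each code stands for is not given in the sources used here, nor are the strain, the genotype or the age of the donors. The codes were therefore compared with each other. No label says that the pools of a code came from separate animals, so p-values measure the spread between pools, and their number limits the precision. In such bulk RNA, fewer cells with a transcript and less of it in each cell cannot be told apart.

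The tissue label was checked against lineage markers. All 6 markers of the inner cell mass, all 7 of the trophectoderm, the outer layer of the blastocyst, and all 6 of the primitive endoderm were well above background on all 24 arrays. Of 7 markers of cumulus and granulosa cells, which surround the oocyte, 3 were above background on 0 arrays and only Foxl2 on all 24. Of the other lists, 2 of 6 oocyte markers, 1 of the 3 blood markers on the array (Ptprc), 1 of 4 markers of endometrium and oviduct (Wfdc2) and 1 of 7 genes of the 2-cell stage were well above background on all 24. The share of spots that stood well above background was 38.6% to 49.7% per array, 75th percentiles of the processed signal lay at 65.9 to 181, and any 2 arrays correlated at 0.952 to 0.988 across genes.

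Heat shock proteins are molecular chaperones, which bind unfolded or newly made proteins and help them to fold. In cells under heat or protein damage, heat shock factor 1 binds repeated GAA units in the promoters of its target genes and raises their transcription. The HSP70 family has members that are made all the time, such as Hspa8, and members that are strongly inducible, Hspa1a and Hspa1b. The inducible pair is also known in mouse for its transcription at the onset of embryonic genome activation, without any heat shock.

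The regulatory sequences of the inducible pair show how alike these genes are, and are printed for that reason. Both lie on the minus strand of chromosome 17. The 250 bases before each start site, from RefSeq (GRCm38.p6), are chr17:34972157-34972406 for Hspa1a and chr17:34959239-34959488 for Hspa1b, printed 5′ to 3′, with the heat shock units found by search in capitals.
Hspa1a: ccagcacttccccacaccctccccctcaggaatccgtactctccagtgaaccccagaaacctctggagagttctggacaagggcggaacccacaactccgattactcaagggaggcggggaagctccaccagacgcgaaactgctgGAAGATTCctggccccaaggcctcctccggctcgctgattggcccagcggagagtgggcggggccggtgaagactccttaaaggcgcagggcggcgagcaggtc
Hspa1b: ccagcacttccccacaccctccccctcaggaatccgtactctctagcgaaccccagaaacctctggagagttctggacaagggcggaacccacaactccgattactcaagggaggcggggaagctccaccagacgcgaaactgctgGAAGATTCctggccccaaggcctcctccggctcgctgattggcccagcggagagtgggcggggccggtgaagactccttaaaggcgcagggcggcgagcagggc
The sequences are identical at 247 of 250 positions (98.8%) and differ at 3. Each holds a single match to a pair of inverted units, GAAGATTC, 104 to 97 bases before the start. The search used GAANNTTC and TTCNNGAA for 2 units, the same with a further inverted unit after 2 more free bases for 3 units, and TATAAA, on both strands. A match to 3 units also counts as a match to 2 units. Of 32536 promoter windows of the same length, 12.9% held 2 units, 0.470% held 3 units and 12.3% held TATAAA. Neither Hspa1 promoter held 3 units or TATAAA in this window.

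Promoter windows were found for 7 of the 10 members, of which 6 held 2 units and 2 held 3. The 2 with 3 units, Hspd1 and Hspe1, encode the mitochondrial chaperonin and its lid, lie head to head on chromosome 1, and share 215 bases of their windows. The stretches around the matches are shown because the only 3-unit matches among the members are at genes taken here as constitutive. They come from the 250-base windows chr1:55087898-55088147 (plus strand, Hspe1), chr1:55087933-55088182 (minus strand, Hspd1), chr5:135887669-135887918 (plus strand, Hspb1) and chr5:149636337-149636586 (minus strand, Hsph1) of the same build.
Hspe1: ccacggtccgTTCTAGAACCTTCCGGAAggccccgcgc
Hspd1: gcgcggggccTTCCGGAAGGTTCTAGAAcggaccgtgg
Hspb1: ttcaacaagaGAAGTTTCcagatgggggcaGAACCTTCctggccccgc
Hsph1: ggtagaatctTTCTCGAAggctcgagaa
The stretch for Hspe1 lies 89 to 72 bases before its start, counted over its capitals, and the stretch for Hspd1 holds the same element read on the other strand, 144 to 127 bases before that start. Hspb1, a small heat shock protein, had 2 separate matches to 2 units, at 117 and 97 bases. Hsph1, a large HSP70-like protein that exchanges nucleotide on HSP70, had its match 33 bases before one start and 54 before another. Dnajb1, the J-domain partner of HSP70, had no match in its windows, nor had a second window of Hspd1. Hspa8, Hsp90aa1 and Hsp90ab1 are named only. A match describes these letters and not a bound site.

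Values below are the log2 of the processed signal minus the 75th percentile of the same array, so 0 is the 75th percentile and 1 unit is a 2-fold difference. The level of a probe depends on its own sequence, so levels are compared between pools and not between genes.

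Hspa1a varied more between pools than any other member. Its probe lies at chr17:35106766-35106825 on the minus strand (mm9, per the file headers). In HC1 the 4 pools, in the order of their numbers, measured -1.46, -0.35, -0.84 and 0.17. In HC2 they measured 0.70, -2.15, -3.27 and 0.31. In HC3 the values were -0.28, -0.56, -1.64 and 0.72. All these codes held pools on both sides of 0. In HC4 the pools measured 0.71, 2.36, 0.56 and 0.77. In HC5 they measured 0.79, -0.41, -1.58 and -2.59. In HC6 they measured -3.64, 0.82, 2.16 and 2.30. HC4 was the only code with all 4 pools above 0, and HC6 held both a pool of very low signal and those ranked 2 and 3 from the top.

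The probe of Hspa1a was well above background in 20 of 24 pools. In pool 1 of HC6, pools 2 and 3 of HC2 and pool 4 of HC5 it was not. Each of these pools was given a floor, between -2.71 and -1.79. The floor is the lowest signal well above background on the array, or the probe's own value where that was higher. It is a stand-in and not a strict upper bound. In pool 2 of HC2 the probe's own value was the higher, though not well above background. All 4 floors lie below the lowest measurable pool, but the order of these 4 pools is not known. The highest pool, pool 2 of HC4, was 17.7-fold above the highest of these floors. Among the 20 measurable pools, Hspa1a ran from -1.64 to 2.36, a 16.0-fold range.

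Hspa1b followed a similar order over a narrower range. Its probe is listed at chr17:35093374-35093405 on the minus strand (mm9), and was well above background in all 24 pools. The 60-base probes of Hspa1a and Hspa1b match at no more than 21 positions when aligned without gaps, and their longest shared run is 5 bases. In HC1 Hspa1b measured -0.95, -0.53, -0.31 and -0.25. In HC2 it measured 0.12, -0.90, -1.39 and 0.15. In HC3 it measured -0.56, -0.29, -0.43 and -0.42, the tightest code for this gene. All pools of HC1 and HC3 thus lay below 0. In HC4 the values were 0.01, 1.24, 0.10 and -0.53. In HC5 they were 0.01, -0.17, -0.26 and -1.38. In HC6 they were -1.26, 0.31, 0.72 and 0.89. The 4 highest pools of Hspa1b were the 4 highest of Hspa1a, pool 2 of HC4 and pools 2, 3 and 4 of HC6. Of the 4 lowest pools, 3 were shared, pool 3 of HC2, pool 4 of HC5 and pool 1 of HC6. For Hspa1b each code overlapped with each of the others. For Hspa1a the lowest pool of HC4, at 0.56, lay above the highest of HC1, at 0.17. All other pairs of codes overlapped for Hspa1a.

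**Figure D1:**
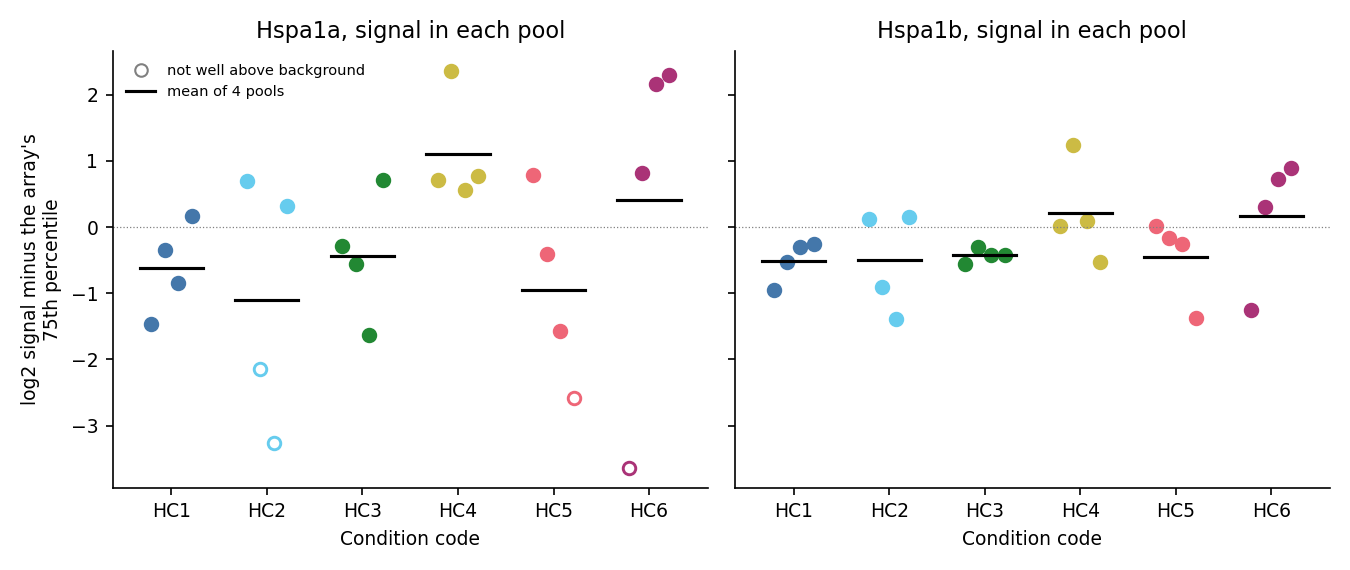
Normalised log2 signal of Hspa1a (left) and Hspa1b (right) in each of the 24 pools, grouped by condition code, with a line at the mean of 4 pools and open points where the probe was not well above background. For Hspa1a the 4 pools of HC4 sit between 0.56 and 2.36, while pools 2 to 4 of HC6 run from 0.82 to 2.30. Pool 1 of HC6 was not well above background.

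Across the 24 pools the SD of Hspa1a was 1.64 log2 units and that of Hspa1b 0.66. The median gene had an SD of 0.27. Among the 500 genes of most similar mean signal, whose median SD was 0.30, Hspa1a exceeded all 500 and Hspa1b exceeded 486. With its 4 dim pools set at the floor, the SD of Hspa1a was 1.42, and over the 20 measurable pools it was 1.19. Within the codes it was 1.62, close to the value over all pools. In the authors' deposited table the SD of Hspa1a was 1.00 and that of Hspa1b 0.428, and with normexp background correction and quantile normalization they were 0.813 and 0.357. On those scales, whose other genes also varied less, Hspa1a exceeded 499 and 497 of the 500 genes of most similar signal, and Hspa1b 477 and 476. Repeated spots of one probe on the same array bear on the measuring error. Over 300 probes printed at least 4 times, the median SD between spots was 0.53 at a processed signal of 5 to 15, 0.22 at 15 to 60 and 0.11 at 60 to 240.

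The constitutive HSP70, Hspa8, and the other chaperones were far steadier. Hspa8, which folds new proteins and uncoats clathrin vesicles, ran from 7.47 in pool 1 of HC6 to 8.33 in pool 2 of HC4, with an SD of 0.21. Hsp90aa1, the stress-responsive cytosolic HSP90, ran from 8.40 to 9.06 with an SD of 0.17. Its constitutive partner Hsp90ab1 ran from 8.91 to 9.48 with an SD of 0.14. These 3 genes varied by at most 1.82-fold between their lowest and highest pools. Among all genes the SD was lower at brighter signal. Against the 500 genes of most similar signal, the SD of Hspa8 exceeded 388, that of Hsp90aa1 329 and that of Hsp90ab1 233.

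In the mitochondrial chaperonin, Hspd1 was the steadiest member by its brightest probe. It ran from 6.74 to 7.04, a 1.23-fold range with an SD of 0.093, and only 24 of the 500 genes of similar signal had a lower SD. The other Hspd1 probe, also well above background on all 24 arrays, had an SD of 0.20. The co-chaperonin Hspe1 ran from 6.85 to 7.44 with an SD of 0.14. Hspb1 ran from 5.68 in pool 3 of HC2 to 6.46 in pool 1 of HC4 with an SD of 0.20. Hsph1 had an SD of 0.18 and Dnajb1 one of 0.17. Hsph1 ran from 4.51 to 5.26 and Dnajb1 from 4.40 to 5.18. Hspa8 and Hsph1 were lowest in pool 1 of HC6, where Hspa1a was not well above background. The array of that pool also had the lowest share of spots well above background, at 38.6%. Hspa8, Hsph1 and Dnajb1 had their highest where Hspa1a and Hspa1b had it, in pool 2 of HC4.

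**Figure D2:**
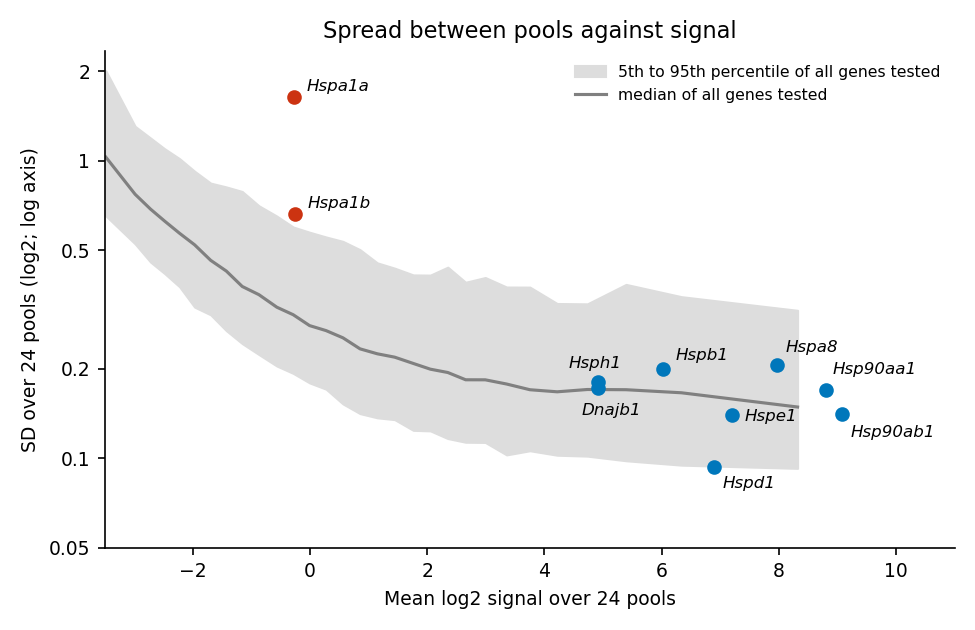
SD of the log2 signal over 24 pools (log axis) against the mean signal, for the 10 genes (red, Hspa1a and Hspa1b; blue, the other 8), with the median (line) and the 5th to 95th percentile (grey band) of all genes tested. Hspa1a, at 1.64, and Hspa1b, at 0.66, lie above the band, and Hspd1, at 0.093, lies at its lower edge.

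The contrast of inducible with constitutive genes was taken in each pool as the mean deviation of Hspa1a and Hspa1b from their 24-pool means, minus the mean deviation of Hspa8, Hsp90ab1, Hspd1 and Hspe1. With the values as measured, it ran from -1.99 in pool 1 of HC6 to 1.87 in pool 2 of HC4, with an SD of 1.06, and lay above 0 in 13 pools and below in 11. With Hspa1a of the 4 dim pools set at the floor, it ran from -1.69 in pool 3 of HC2 to 1.80 in pool 2 of HC4, with an SD of 0.956, and 23 of 24 pools kept their sign. The constitutive part alone stayed between -0.19 and 0.20 in every pool. The inducible part as measured moved from -2.19 to 2.06. The mean deviation of the other 4 members, Hspb1, Hsp90aa1, Hsph1 and Dnajb1, stayed between -0.25 and 0.18.

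By code, the contrast averaged 0.85 ± 0.68 in HC4 (SD, n = 4) and 0.55 ± 1.77 in HC6 (SD, n = 4). It averaged -0.18 ± 0.47 in HC3, -0.28 ± 0.50 in HC1, -0.47 ± 1.00 in HC5 and -0.49 ± 1.23 in HC2, each as SD over 4 pools. HC4 had 4 of 4 pools above 0, HC6 3, HC1 and HC2 2 each, and HC3 and HC5 1 each. The mean of HC4 rests partly on pool 2, at 1.87, while its other pools lay between 0.48 and 0.55 and averaged 0.51. The mean of HC6 rests on its dim pool 1, and its other 3 pools averaged 1.404 ± 0.59 (SD, n = 3). With the dim value at the floor HC6 averaged 0.72 ± 1.32. With any 1 pool left out, the mean ran from 0.14 to 1.404 in HC6 and from 0.51 to 0.98 in HC4. It ran from -0.42 to -0.047 in HC1, from -0.86 to -0.013 in HC2, from -0.39 to -0.0052 in HC3 and from -0.86 to -0.069 in HC5. Each code overlapped with some of the others in this contrast. The lowest pool of HC4, at 0.48, lay above the highest of HC1, at 0.15, and of HC3, at 0.45. No test was made of it, since the genes were chosen with their pattern known.

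**Figure D3:**
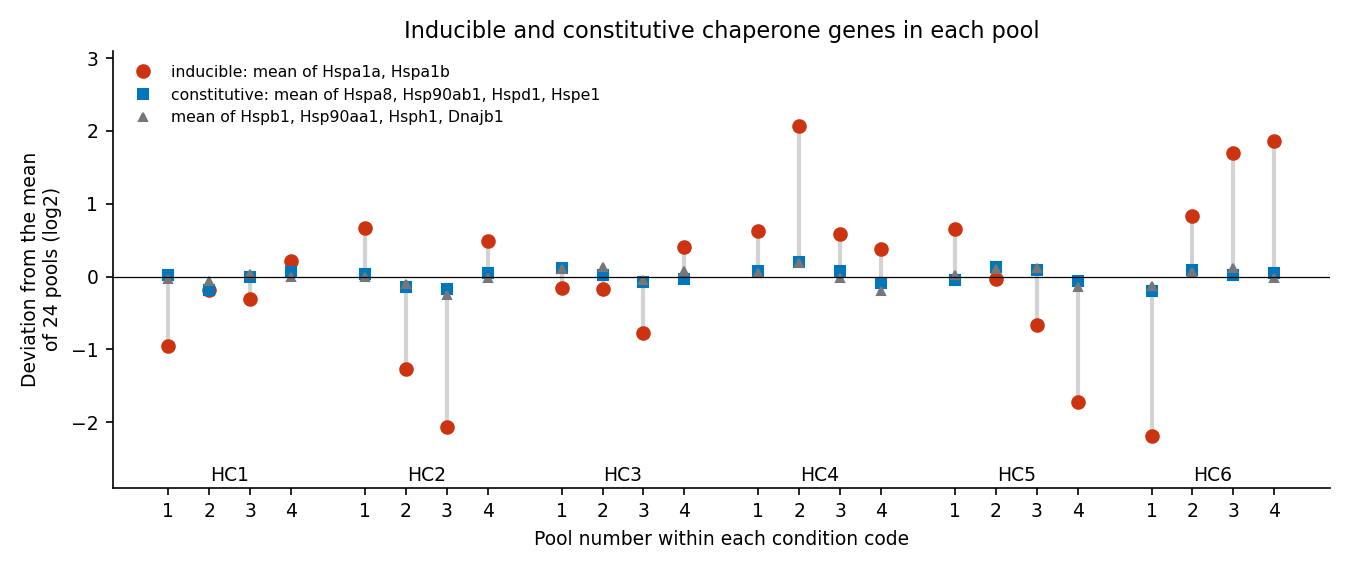
Mean deviation from the 24-pool mean (log2) in each pool for the inducible pair (circles), the 4 constitutive genes (squares) and the other 4 members (triangles), with pools numbered within each code. The circles, with the 4 dim Hspa1a values as measured, run from -2.19 to 2.06, while the squares stay between -0.19 and 0.20.

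No gene of the set was called different between codes. The moderated F-test of limma over the 6 codes, with Benjamini-Hochberg adjustment over 18448 genes, called 0 of the 10 members and 0 genes in all (0%). At an unadjusted p under 0.05 it held 0 of 10 members and 385 of all genes (2.09%). The adjusted p was 1.00 for each member, and the unadjusted p of Hspa1a was 0.326 and that of Hspb1, the smallest, 0.225.

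Each code was then set against the mean of the other 5. At an adjusted p under 0.05 limma called 0 members and 0 genes in each of the 6 comparisons (0%). At an unadjusted p under 0.05 it held 0 members in any code, where the share of all genes that passed was 5.49% in HC5, 3.20% in HC1, 2.95% in HC6, 2.25% in HC2, 1.89% in HC4 and 1.58% in HC3. No member had its 4 pools outside the range of the other 20 in any code. Among all genes this held for 3 in HC1 (0.0163%), for 1 in each of HC2, HC4 and HC6 (0.00542%), and for 0 in HC3 and HC5 (0%).

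The difference with the lowest p among the members was that of Hspa1a in HC4. Hspa1a averaged 1.101 ± 0.85 (SD, n = 4) in HC4 and -0.54 over the other codes, a difference of 1.64 (95% interval -0.11 to 3.39). All 4 pools of HC4 lay above the mean of the others, 14 of the other 20 pools lay below its lowest pool, 6 lay inside its range and 0 above. The unadjusted p was 0.0644 and the adjusted p from limma 0.998, with a range of 0.391 to 1.00 over the alternative settings. Without pool 2 of HC4 the difference was 1.22. It was 1.04 in the authors' deposited table and, with normexp and quantile normalization, 0.83. Hspa1b in HC4 differed by 0.55 (95% interval -0.17 to 1.27), with 3 of 4 pools above the mean of the others, and by 0.21 without pool 2. That difference was 0.29 with normexp and quantile normalization and 0.33 in the authors' deposited table.

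In HC6 Hspa1a averaged 0.41 ± 2.78 (SD, n = 4), and its difference was 0.81 (95% interval -0.94 to 2.56), with 3 of 4 pools above the mean of the others. Pool 1 was not well above background for Hspa1a. Without it Hspa1a averaged 1.76 ± 0.82 (SD, n = 3) and differed by 2.16, with an adjusted p of 0.555 from limma. Without pool 3 or pool 4 of HC6 the difference was 0.23 or 0.18. Hspa1b differed by 0.50 (95% interval -0.22 to 1.22), and by 0.97 without pool 1, with an adjusted p of 0.555 from limma. Without pool 3 or pool 4 it differed by 0.32 or 0.26. In the remaining codes both genes averaged below the others. For Hspa1a the differences were -0.42 in HC1, -1.002 in HC2, -0.21 in HC3 and -0.82 in HC5. For Hspa1b they were -0.31, -0.30, -0.21 and -0.24. With normexp and quantile normalization and in the authors' deposited table, Hspa1a differed by -0.45 and -0.57 in HC2 and by -0.46 and -0.55 in HC5, and Hspa1b by -0.12 to -0.23 over these 4 codes. Every one of these intervals included 0, and each was wide: for Hspa1a in HC2 it ran from -2.75 to 0.75.

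For the other 8 members the differences were small and their intervals narrow. The furthest from 0 was Hspb1 in HC2, at -0.20 (95% interval -0.42 to 0.02), with 0 of 4 pools above the mean of the others. Hspb1 was highest in HC5, at 0.14 (95% interval -0.08 to 0.37). Hspe1 in HC4 differed by 0.12 (95% interval -0.06 to 0.30), with 4 of 4 pools above the mean of the others. Dnajb1 differed by -0.11 in HC2 and -0.10 in HC5, Hsph1 by 0.10 in HC3, and Hspa8 by -0.10 in HC2. Hsp90aa1, Hsp90ab1 and Hspd1 stayed within -0.08 to 0.08 in every code.

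In HC2 all 10 members lay below the mean of the other codes, where 58.2% of all genes did, with a median difference of -0.09 for the members and -0.02 for all genes. All 10 lay below under the 4 other scalings as well, where the share of all genes ran from 46.4% to 55.0%. Single pools were mixed: 3 of 4 HC2 pools lay above the mean of the others for Hsp90aa1 and 2 for Hspa1a and Hspa1b. For each of the rest it was 0 or 1. Since 39 of the 45 pairs of members correlated above 0, the 10 directions are not independent, and the scalings use the same arrays. In HC4 2 of 10 members lay below, Hsp90aa1 and Hsph1, where 35.0% of all genes did, with medians of 0.08 and 0.05. That split moved with the scaling, with 2 to 4 members and 43.8% to 53.6% of all genes below under the 4 others, while Hspa1a, Hspa1b, Hspa8, Hspb1, Hspd1 and Hspe1 lay above under each. In HC1, HC3, HC5 and HC6, 7, 5, 4 and 4 members lay below, where 52.2%, 50.1%, 52.3% and 51.8% of all genes did. Under the other scalings these counts moved to between 2 and 7, and the shares of all genes to between 45.3% and 53.6%. Over the 15 pairs of codes, 0 of 150 combinations of member and pair were called after adjustment over all genes and pairs (0%). At an unadjusted p under 0.05 there was 1, Hspb1 in HC2 minus HC5, at -0.29. Its adjusted p from limma was 1.00. Over all genes 2.84% of combinations passed.

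**Figure D4:**
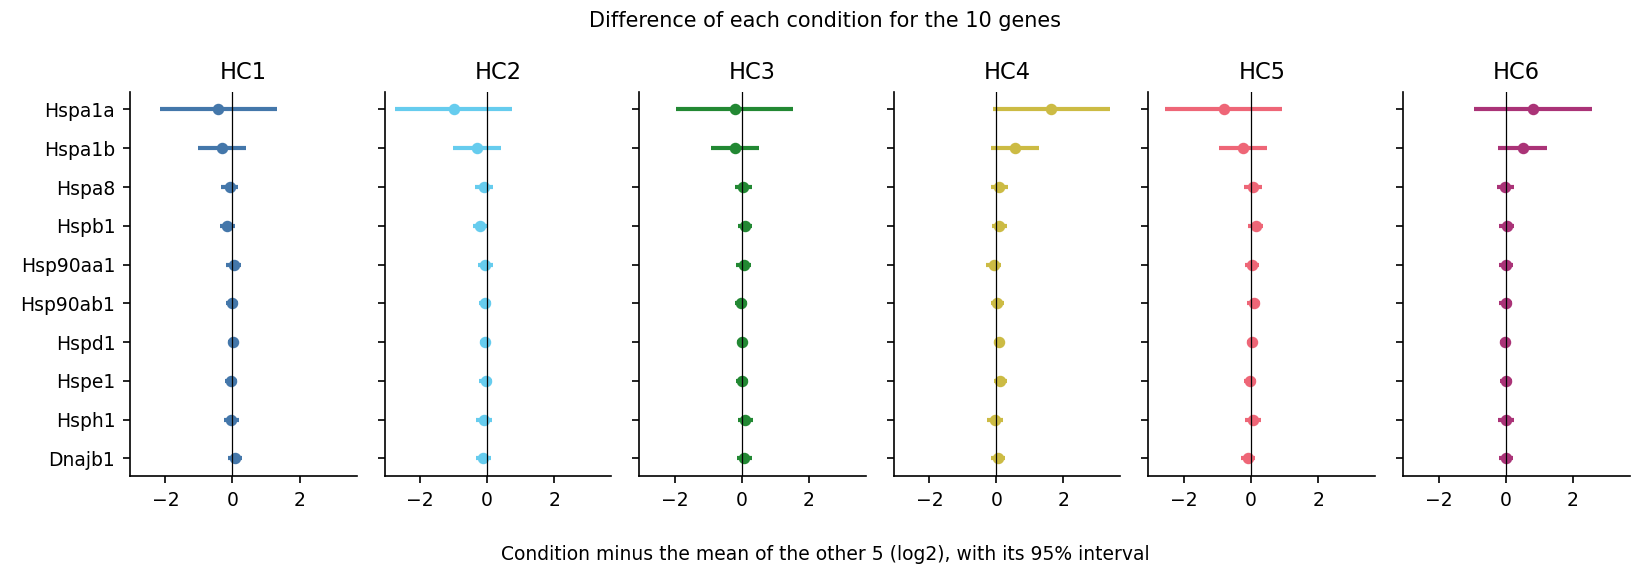
Difference of each condition code from the mean of the other 5 (log2) for the 10 genes, with 95% intervals from the model over all genes. The intervals of Hspa1a and Hspa1b are the widest, and that of Hspa1a in HC4 runs from -0.11 to 3.39.

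The members did not all move together from pool to pool. Correlations over the 24 pools are given as a description, since pools share arrays, slides and codes. Hspa1a and Hspa1b correlated at r = 0.90 (Spearman's rho 0.81). The r was 0.87 without the 2 pools farthest from the median of Hspa1a, pool 3 of HC2 and pool 1 of HC6, and 0.89 within codes. On the 3 slides, with 8 pools each, it was 0.95, 0.98 and 0.80.

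With the other 8 members, Hspa1a correlated at r = 0.60 for Hspa8, 0.56 for Dnajb1, 0.50 for Hsph1 and 0.42 for Hspe1. It correlated at 0.30 for both Hsp90ab1 and Hspd1, 0.26 for Hspb1 and 0.03 for Hsp90aa1, whose sign turned under other scalings. Of 9990 named genes measured on all arrays, 67.9% correlated above 0 with Hspa1a, with a median of 0.18 and a 95th percentile of 0.60. By that order Hspa1b ranked 1, Hspa8 460, Dnajb1 860 and Hsph1 1348. Hspa8 therefore stood at about the 95th percentile of these named genes, and the members below Hspe1 stood among the bulk of them.

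Most of these correlations were lower once the dim pools were left out, and the one with Hspa1b stayed the highest. Over the 20 pools in which Hspa1a was measurable, a choice made after its values were seen, Hspa1b correlated with Hspa1a at r = 0.82 (rho 0.68). Hspa8 correlated at 0.37 (rho 0.28), Hspe1 at 0.23, Hsph1 at 0.17, Dnajb1 at 0.11 and Hsp90aa1 at -0.19. Hsp90ab1 correlated at -0.02 and Hspd1 at -0.05. On the third slide alone Hspa8 correlated with Hspa1a at -0.15 and Hsph1 at 0.02, where the first gave 0.78 for Hspa8. Hspa1b was well above background in all 24 pools. Over these it correlated at 0.67 with Hspa8, 0.65 with Dnajb1, 0.64 with Hsph1 and 0.50 with Hsp90ab1. With Hspe1, Hspd1, Hsp90aa1 and Hspb1 it correlated at 0.41, 0.25, 0.18 and 0.15.

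**Figure D5:**
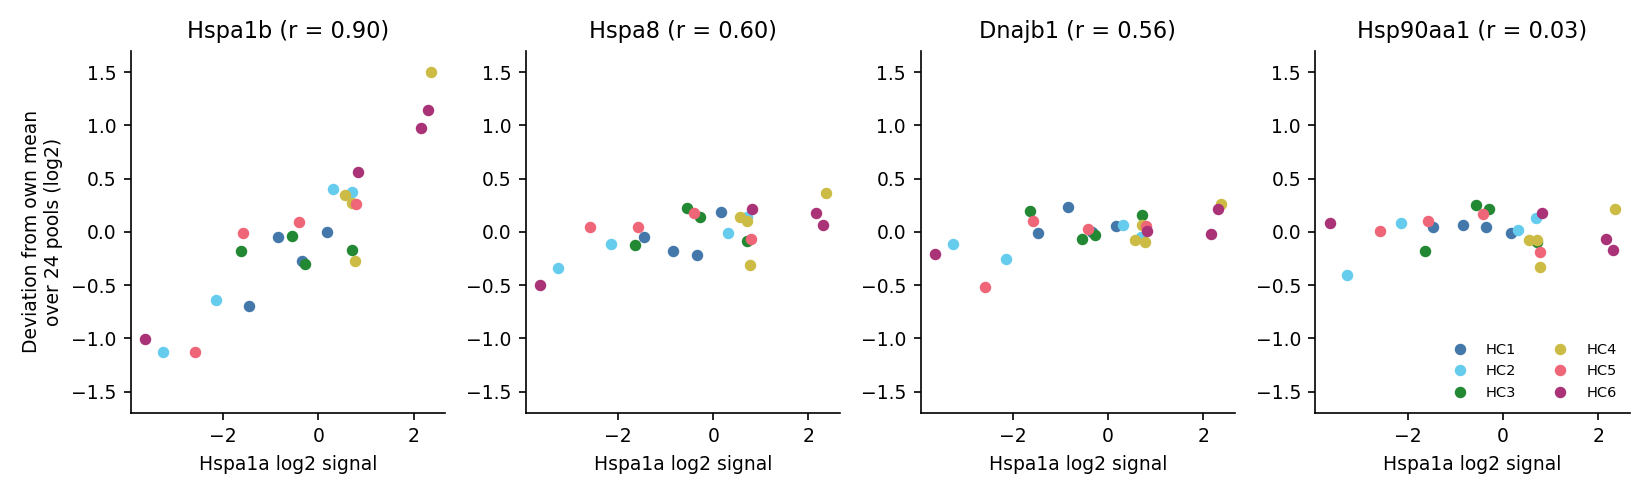
Deviation of Hspa1b, Hspa8, Dnajb1 and Hsp90aa1 from their own means over 24 pools (log2) against the log2 signal of Hspa1a, with pools coloured by condition code. Hspa1b rises along the whole range (r = 0.90), while Hspa8 (r = 0.60), Dnajb1 (r = 0.56) and Hsp90aa1 (r = 0.03) span a narrower range.

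Some other pairs of members had correlations above 0.5. Hsp90ab1 correlated with Hsph1 at 0.74, with Hsp90aa1 at 0.65 and with Hspa8 at 0.64. Hspd1 and Hspe1, which share their promoter region and act as a single complex, correlated at 0.58. Hspb1 correlated with Hspe1 and Hspa8 at 0.42 each and with Dnajb1 at -0.14, the lowest of the 45 pairs. In all, 39 of 45 pairs were positive, with a median of 0.34.

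Probes of the same gene did not always give the same picture. The 4 probes of Hspa8 correlated with Hspa1a at 0.60, 0.44, 0.37 and 0.58, and 3 of them correlated with the brightest at 0.42, 0.28 and 0.60. The brightest probe of Hspd1 correlated with Hspa1a at 0.30 and its other probe at 0.59, and they correlated with each other at 0.61. The 3 probes of Hspe1 gave 0.42, 0.41 and 0.54, and those of Hsph1 0.50, 0.27 and 0.36. Spread also depended on the probe, with SDs of 0.14, 0.15 and 0.35 for those of Hspe1. The pair of bright Hsp90aa1 probes correlated with each other at 0.86 and with Hspa1a at 0.03 and 0.19. Hspa1a, Hspa1b, Hspb1, Hsp90ab1 and Dnajb1 have a single probe each, so no second probe checks the wide spread of the inducible pair.

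Measures of the arrays themselves also moved with Hspa1a to some degree. The share of spots well above background correlated with it at r = 0.47 (rho 0.33) and the log2 75th percentile at 0.34 (rho 0.29) over 24 pools. Pool 1 of HC6 and pool 4 of HC5, both dim for Hspa1a, had the lowest shares of all arrays, 38.6% and 39.1%. Pool 4 of HC5 also had the lowest 75th percentile, 65.9. Pools 2 and 3 of HC2, also dim for Hspa1a, had shares of 45.3% and 47.2%. Slide means of Hspa1a were -0.71 ± 1.59, -0.17 ± 1.90 and 0.08 ± 1.51 (SD, n = 8 pools). Their part in the spread was not tested.

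The wider chaperone network was described by 8 lists holding 100 different genes, of which 91 were tested. The F-test called 0 of the 91 after adjustment (0% of all genes), and 2 passed at an unadjusted p under 0.05, where 2.09% of all genes did. In each code against the others 0 list genes were called. Their median SD was 0.18. In 5 it exceeded that of Hspa1b and in 0 that of Hspa1a. The 5 were Hsf5, Hspa12a, Dnaja4, Hspb9 and Tfec, which were well above background on only 9, 13, 13, 5 and 6 arrays. Of the 91 genes, 78.0% correlated above 0 with Hspa1a, with a median r of 0.26. For the 9990 named genes well above background on all arrays it was 67.9% and 0.18. Some of the 91, such as Hsf5 and Hspb9, are dimmer than that, so the sets are not alike.

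Among the heat shock factors, 5 of 6 were tested and 0 called, with a median SD of 0.25. Hsf1, the factor that drives heat shock genes, measured 1.96 ± 0.18 (SD, n = 24) and correlated with Hspa1a at -0.32. Hsbp1, a small protein that binds the factor, measured 4.12 ± 0.16 (SD, n = 24). Hsf2bp measured -1.15 ± 0.43. With Hspa1a, Hsf2 correlated at 0.44, Hsbp1 at 0.35, Hsf5 at 0.30 and Hsf2bp at -0.27. Of 20 known targets of the factor outside the members, 19 were tested and 0 called, and their mean deviation correlated with Hspa1a at 0.53 (rho 0.45). The list holds the immediate early genes Ier5, with an SD of 0.50, and Jun, with an SD of 0.23.

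Of the remaining HSP70 genes, 9 of 11 were tested and 0 called. Hspa2, known from the testis, ran from -3.17 to -0.54. Hspa4l was at 1.72 in pool 2 of HC1 and averaged -0.16 over all pools. In the HSP90 family both other genes were tested and 0 called. Hsp90b1, of the endoplasmic reticulum, had an SD of 0.18 and mitochondrial Trap1 one of 0.089.

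J-domain proteins hand clients to HSP70, and 19 of 20 were tested. After adjustment 0 were called, and Dnajb3 and Dnaja4 passed only without it, each with an adjusted p of 1.00 from limma. The mean deviation of this list correlated with Hspa1a at 0.68 (rho 0.65), the highest of the 8 lists. The other lists ran from -0.30 for the small heat shock proteins to 0.53 for the targets of heat shock factor 1. No background for means of many genes was made, so these r cannot be set against those of single genes. The mean of the J-domain list was lowest in pool 4 of HC5, at -0.33, on the array of lowest 75th percentile. It was highest in pool 4 of HC6, at 0.21. Dnajb6 had the highest r of the 91 list genes, 0.69, and was named after its value was seen. Dnajb4 was well above background on 4 arrays.

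Of the other small heat shock proteins 6 of 9 were tested and 0 called. Hspb8 had an SD of 0.37 and Hspb2 one of 0.38, and Hspb6 and Hspb9 had r of -0.33 and -0.58 with Hspa1a. The other 4 tested correlated above 0 with it, from 0.04 for Hspb2 to 0.48 for Hspb11. Of the co-chaperones of HSP70 and HSP90 26 of 27 were tested and 0 called, with a median SD of 0.16. Fkbp5, a co-chaperone of steroid receptors, had an SD of 0.30, and Bag2, a nucleotide exchange factor of HSP70, one of 0.41. All 14 subunits of the cytosolic chaperonin and prefoldin were tested and 0 called, with a median SD of 0.12. Cct6a had an SD of 0.17, Vbp1 one of 0.12, and Pfdn4 was at 3.27 in pool 4 of HC4 against a mean of 0.42.

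Among the 9990 named genes well above background on all arrays, those most like Hspa1a over the 24 pools were, after Hspa1b, Cdca3 (r = 0.79, rho 0.67), Nelfa (0.77, rho 0.64) and Espl1 (0.77, rho 0.67). Aspm (0.75, rho 0.67), Cplane1 (0.75, rho 0.76), Brd9 (0.75, rho 0.69) and Tedc2 (0.74, rho 0.69) followed. Cdca3, Espl1 and Aspm are known from mitosis, and Nelfa is a subunit of the complex that pauses RNA polymerase II. The least alike were Selenon (-0.78, rho -0.71), Mettl7a3 (-0.78, rho -0.72) and Sirpb1a (-0.77, rho -0.75). All these r include the 4 pools in which Hspa1a was not well above background. Without the 2 pools farthest from the median of Hspa1a, the most alike after Hspa1b ran from 0.64 (Tedc2) to 0.75 (Brd9). The least alike then ran from -0.75 (Selenon) to -0.71 (Mettl7a3). The SD of Cdca3 was 0.21 and that of Cplane1 0.38, far less than that of Hspa1a.

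Markers of the embryo lineages and of other cells were set beside Hspa1a in the same way, with the 4 pools dim for Hspa1a included. The mean deviation of the 6 inner cell mass markers correlated with Hspa1a at r = 0.56 (rho 0.53), that of 7 trophectoderm markers at -0.11 and that of 6 primitive endoderm markers at 0.03. No background for such means was made here either. Of the 6 inner cell mass markers 5 correlated above 0, from Nanog at 0.30 to Sox2 at 0.60, and Pou5f1, named after its value was seen, at -0.09. Of the oocyte markers 4 of 6 were tested (r = 0.03), of cumulus and granulosa cells 2 of 7 (-0.46), of blood 2 of 4 (0.34), and of endometrium and oviduct 2 of 4 (0.36). Foxl2 correlated with Hspa1a at -0.71 and ran from 4.53 in pool 4 of HC6 to 5.88 in pool 4 of HC5. Ptprc, the leukocyte antigen CD45, correlated at 0.66 and ran from 2.81 to 4.51, and the other blood marker tested, Hba-a1 of hemoglobin, correlated at -0.05. For 2-cell stage genes 4 of 7 were tested. Zscan4f and Usp17le were well above background on only 4 arrays each, the fewest the filter allows, and Tcstv3 on 11. The mean deviation of this list correlated with Hspa1a at 0.30 (rho 0.17) and was highest in pool 3 of HC6, at 4.16. In the pools where Hspa1a ranked 1, 2 and 3 from the top it was -1.06, 2.07 and 4.16. In the 4 pools where Hspa1a was not well above background it ran from -0.75 to 1.60. The part of these markers in the spread of Hspa1a was not tested.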

How the data were processed

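Labelled RNA (Cy3) of 24 pools was measured on one-colour arrays, with 1 pool per array. The deposited scanner files give spot intensity values on a linear scale, which Agilent Feature Extraction 10.10.1.1 had background subtracted and detrended, per the file headers. Spot flags come from the same files. The authors' deposited table of log2 values served as an alternative, and how it was normalized is not given in the sources used here. Control and outlying spots were left out, log2 signals were averaged per probe, and each array's 75th percentile was subtracted. A probe was kept if 4 or more arrays of 24 had it well above background, with 2 values per code, and a gene took its brightest kept probe. A model of 6 code means was fitted to all 18448 genes with limma 3.58.1 in R 4.3.3 (eBayes, Benjamini-Hochberg at 0.05), and the code was tested on simulated data. Python 3.11.15 did the rest.

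The members and lists were chosen with earlier results of these data known. Beside the members, the text names from each list the 2 genes of largest SD and the 2 of smallest p, and the 8 genes most and 3 least correlated with Hspa1a. The 60 pairs of arrays of different codes that share a pool number had a median correlation of deviations of -0.01, and 25 exceeded 0.1. The 180 pairs with other numbers had a median of -0.01, and 57 exceeded 0.1. On the same slide 31 of 78 pairs did, and on different slides 51 of 162. The part above 0.1 was thus somewhat larger with a shared number or slide. As the medians for shared and other numbers were alike, numbers were not taken to pair pools. Alternatives covered normalization, filter, probe rule, slide, pool number, array weights and each pool left out in turn.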

Additional observations from a re-analysis of the deposited data

Results flagged for a closer look

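In 66 sets of 4 pools (the 10 genes and the contrast, in 6 codes), 6 held a pool far from the other 3, where chance gives about 1 in 20 sets. Hspa1a in pool 2 of HC4 was at 2.36, with the other pools at 0.56 to 0.77. The contrast of inducible with constitutive genes in the same pool was 1.87, with the others at 0.48 to 0.55, and it holds the same Hspa1a value. Dnajb1, the J-domain partner of HSP70, was at 4.40 in pool 4 of HC5, with the others at 4.95 to 5.02, and Hspa1a was not well above background in that pool. The array of that pool had the lowest 75th percentile of all, at 65.9. Hsp90ab1 in pool 2 of HC1 was at 9.04, with the others at 9.08 to 9.09, a gap smaller than most spreads here. Hspe1 in pool 1 of HC3 was at 7.44, with the others at 7.09 to 7.14. Hsph1 in pool 1 of HC2 was at 5.001, with the others at 4.76 to 4.80.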

How the results depend on the processing

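Under each alternative 0 of the members tested were called in any comparison, all 10 of them except where probes had to be well above background on all arrays, which leaves out Hspa1a. Of the counts and spreads, 389 values stayed near the main one and 17 moved, and of the values for single members 704 kept their direction and call and 2 reversed. Hsp90ab1 in HC5 turned to -0.032 without HC5 pool 3 and Hsp90aa1 in HC4 to 0.0089 without HC4 pool 4. Leaving out each pool in turn, Hsp90ab1 in HC5 ranged from -0.032 to 0.15 and Hsp90aa1 in HC4 from -0.17 to 0.0089. The SD of Hspa1a fell to 0.813 with normexp and quantile normalization and to 1.00 in the authors' table, that of Hspa1b to 0.357 and 0.428, and that of the contrast to 0.531 and 0.653, with 22 of 24 pools keeping the sign of the contrast in each. An offset of 50 is added in the first, which narrows differences between dim signals. In the authors' table the cause was not tested. Among all genes, calls rose from 0 to 2 in HC2 in the authors' table, to 1 in HC5 with no filter and to 1 in HC4 with array weights. Leaving out each pool in turn, they ranged from 0 to 1 in the F-test (1 without HC1 pool 3 or HC4 pool 4), from 0 to 1 in HC1 (without HC1 pool 3), from 0 to 4 in HC2 (without HC2 pool 1), from 0 to 2 in HC4 (without HC4 pool 4), from 0 to 1 in HC5 (without HC5 pool 1) and from 0 to 4 over pairs (4 without HC1 pool 3 and 3 without HC4 pool 4). With the replicate block, the pool number as a term in the fit, 0 genes were called in the F-test, in each code and over the pairs. The correlation of Hspa1b with Hspa1a was 0.90 to 0.91 under the other scalings, while that of Hsp90aa1 turned negative (-0.09 to -0.15) and that of Hspd1 fell to 0.04 to 0.06. Leaving out each pool in turn, it was 0.89 to 0.93 for Hspa1b and 0.49 to 0.69 for Hspa8. Dim signal limits Hspa1a, whose probe was not well above background in 4 pools. Repeated spots differ by a median SD of 0.53 at a processed signal of 5 to 15 and 0.22 at 15 to 60.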
